A study of Mus musculus with 9 samples.

Results

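Interferon regulatory factors (IRFs) were followed in mouse leukemia cells: Irf1, Irf2, Irf3, Irf4, Irf5, Irf7, Irf8 and Irf9, chosen by symbol as 8 of the 55536 genes of the expression table. The cells carried the MLL-AF9 fusion with GFP, delivered by retrovirus into c-kit+ cells of WT or IRF7-/- mice, and all were on the C57BL/6J background. They were transplanted without irradiation into C57BL/6J mice aged 6 to 8 weeks, which keep their own blood cells, and leukemia cells were sorted from bone marrow on day 18. Each of 3 groups had 3 RNA libraries: the c-kit- cells of WT leukemia (AML-WT-c-kit-, here WT c-kit-), its c-kit+ cells (AML-WT-c-kit+, here WT c-kit+), and the c-kit+ cells of knockout leukemia (AML-IRF7-/--c-kit+). In the knockout strain, exons 2 and 3 of Irf7 are replaced by a selection cassette in every cell. The labels do not say whether the libraries of a group came from separate mice, so the p-values measure only the spread between these libraries.

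IRFs share a DNA-binding domain that recognizes GAAA repeats, and they differ in how they are switched on. IRF3, IRF5 and IRF7 lie dormant until kinases downstream of pattern recognition receptors phosphorylate them, and IRF3 and IRF7 then drive type I interferon genes. IRF9 is the DNA-binding part of ISGF3, the complex that turns on antiviral genes after interferon. IRF1 and IRF2 act as activator and repressor at shared sites, while IRF4 and IRF8 bind DNA with partners such as PU.1 (Spi1) or BATF proteins. In myeloid cells IRF8 is known for directing progenitors to monocytes and dendritic cells and away from granulocytes.

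Promoters are shown for Irf1, Irf2 and Irf8, the members in which any of 4 searched motifs was found. Each sequence is the RefSeq window of 250 bases before to 50 bases after the start of the gene (GRCm38.p6), 5′ to 3′ on the strand of the gene, and capitals mark the motif matches.

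Irf1 promoter, chr11:53769764-53770063, plus strand: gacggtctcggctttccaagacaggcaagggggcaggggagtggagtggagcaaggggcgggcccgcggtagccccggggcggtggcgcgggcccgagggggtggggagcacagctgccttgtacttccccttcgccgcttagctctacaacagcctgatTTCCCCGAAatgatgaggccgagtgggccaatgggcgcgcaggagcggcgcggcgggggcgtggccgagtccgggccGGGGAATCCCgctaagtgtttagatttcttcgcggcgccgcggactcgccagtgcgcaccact
Irf2 promoter, chr8:46739495-46739794, plus strand: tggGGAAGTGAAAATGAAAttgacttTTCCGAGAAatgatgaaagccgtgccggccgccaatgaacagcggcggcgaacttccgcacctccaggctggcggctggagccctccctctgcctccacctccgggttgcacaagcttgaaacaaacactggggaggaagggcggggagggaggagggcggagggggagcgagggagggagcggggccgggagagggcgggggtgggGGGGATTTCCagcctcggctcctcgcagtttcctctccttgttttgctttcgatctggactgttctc
Irf8 promoter, chr8:120736108-120736407, plus strand: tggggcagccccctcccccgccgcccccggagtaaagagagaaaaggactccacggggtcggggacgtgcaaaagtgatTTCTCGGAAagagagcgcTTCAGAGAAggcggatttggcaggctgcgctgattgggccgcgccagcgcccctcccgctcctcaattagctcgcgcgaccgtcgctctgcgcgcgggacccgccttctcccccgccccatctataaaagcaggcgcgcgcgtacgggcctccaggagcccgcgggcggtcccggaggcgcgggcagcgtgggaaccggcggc

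The motifs were searched on both strands. The GAS motif, the STAT site TTCNNNGAA, reads the same on both strands and was found once in Irf1 (first base at −90 from the start), once in Irf2 (−224) and at 2 places in Irf8 (−171 and −153). It was present in 8.30% of all 32851 mouse promoters of this length. The NF-kB motif, given by its name, was found in Irf1 (−13) and Irf2 (−17), against 4.51% of all promoters. The ISRE core, GAAA followed by any 2 bases and GAAA, was found in Irf2 alone among the members (−241) and in 3.44% of promoters. The IRF and ETS composite, GGAA followed by any 2 bases and GAAA, was also found in Irf2 (−247), overlapping the ISRE core, and in 2.72% of promoters. None of these letters was found in the windows of Irf3, Irf4, Irf5, Irf7 or Irf9. A match is a description of the window and not a measured binding site.

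Irf7 was read first, because it is the gene targeted in the knockout. It lies at chr7:141262706-141266481 on the minus strand (GRCm38). Its level was 23.5, 22.3 and 32.3 TPM (a level scaled by transcript length and by the library total) in WT c-kit- libraries 1, 2 and 3, and 5.31, 3.91 and 3.36 TPM in WT c-kit+. In the third group, labelled AML-IRF7-/--c-kit+, it was 12.8, 5.97 and 7.95 TPM, above all 3 WT c-kit+ libraries. Exons 2 and 3 make up 585 of the 1916 nucleotides (30.5%) of the longest principal Irf7 transcript, and the table holds 1 value per gene, so transcripts with and without them could not be told apart and the level does not test the deletion. The level of the whole gene was not lower than in WT c-kit+, but it does not speak to exons 2 and 3. The genotype was therefore taken from the label and not judged from this level. These are called the labelled libraries, and any direction read from them depends on that label. On the opposite strand Phrf1 overlaps Irf7 and shares 45 of its 3776 exonic bases, and the use of strand in the quantification is not given in the sources used here. Phrf1 was 49.5 ± 1.17 TPM in WT c-kit+ and 51.9 ± 5.80 TPM in the labelled libraries (SD, n = 3).

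The surface sort could be read from Kit, which encodes c-kit: its log2 fold change between the WT groups was 4.52 (limma adjusted p = 0.000105). Library totals ran from 987468 to 992231 TPM, and the 10 most abundant genes took 9.39% to 17.3% of a library. The summed level of 7 neutrophil markers was 1178 to 6240 TPM in WT c-kit-, 13522 to 25258 TPM in WT c-kit+ and 284 to 547 TPM in the labelled libraries. Camp and Ngp, which encode granule proteins, made up most of this sum in WT c-kit+. Of the 7 genes, 2 were higher and 1 lower in WT c-kit+ than in WT c-kit-, against 14.0% and 27.6% of all genes, and 4 did not pass. The lower gene was Mmp8, a neutrophil collagenase, at 85.1, 54.8 and 84.0 TPM in WT c-kit- and 4.02, 2.63 and 7.40 TPM in WT c-kit+. The part of this shift in the results on the members was not tested. In bulk RNA, fewer cells of a type and less RNA per cell cannot be told apart.

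**Figure D1:**
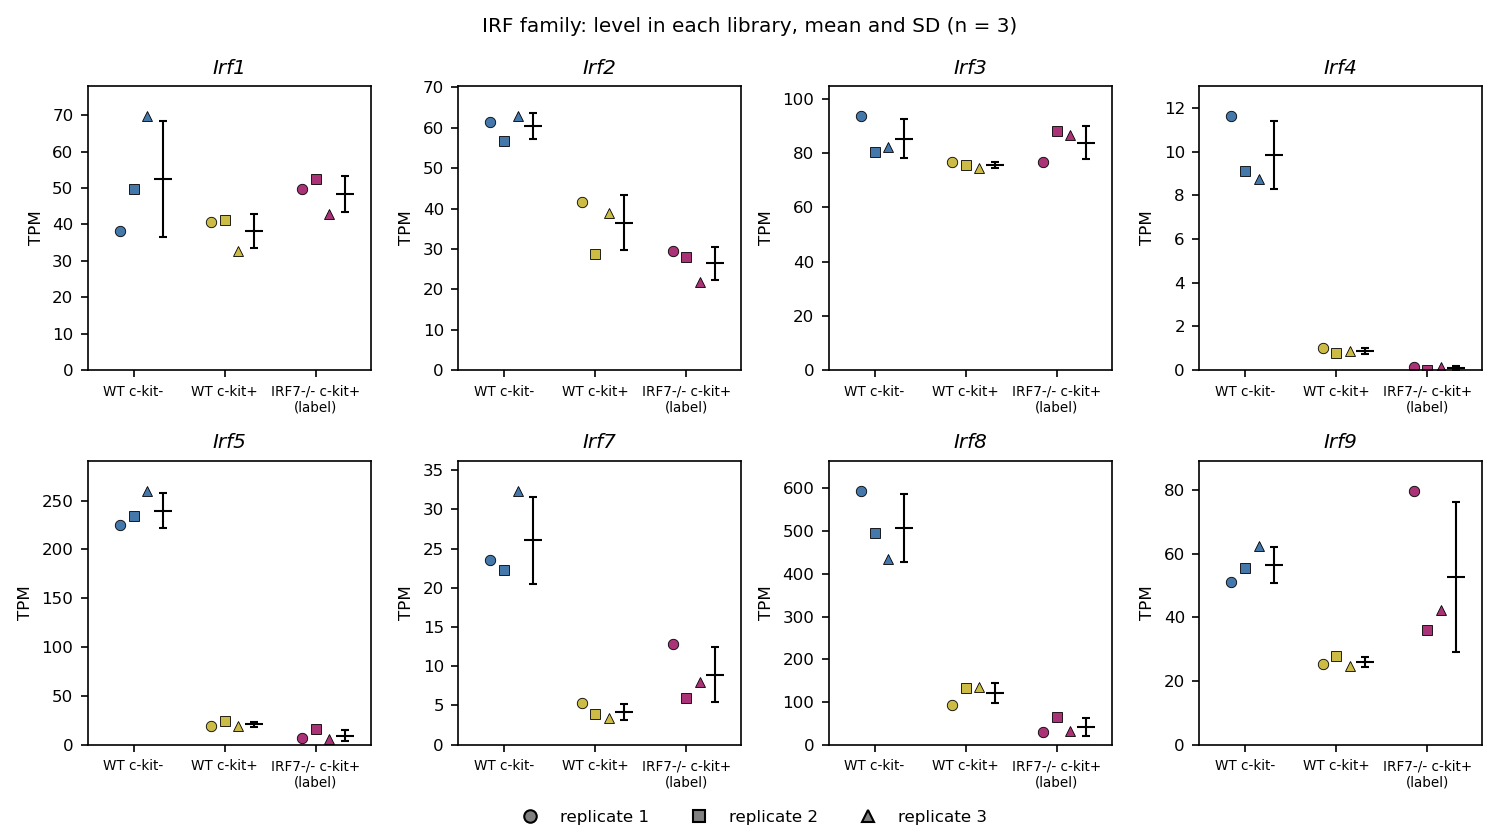
Level of each IRF in TPM (linear axis from 0) in each of the 9 libraries, with points shaped by replicate number and the mean with its SD (n = 3) beside them. Irf4, Irf5, Irf7 and Irf8 stand far higher in WT c-kit- than in both c-kit+ groups, and Irf3 lies between 74.6 and 93.5 TPM in all libraries.

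The first comparison asked how the family differs between c-kit- and c-kit+ cells of the same WT leukemia. Of the 8 members, 6 were lower in WT c-kit+ and none was higher at a limma adjusted p under 0.05. Irf4 is among the 6, though it could pass only through the c-kit- libraries where it is high. Over all 13261 genes tested, 41.6% passed, 27.6% lower and 14.0% higher. With a fold threshold of 1 on the log2 scale as well, 5 members passed, against 14.4% of all genes. The libraries of the groups did not overlap for 7 members, against 54.4% of all genes. Log2 fold changes are on the log2(TPM + 1) scale, on which the median of all genes was −0.08.

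Irf5, the dormant factor downstream of Toll-like receptors, moved furthest. Its level was 225, 234 and 260 TPM in WT c-kit- and 18.7, 24.0 and 19.5 TPM in WT c-kit+, an 11.6-fold difference of the means with no overlap. The log2 fold change was −3.47 (SE 0.11, limma adjusted p = 8.94e-06). Tnpo3 overlaps Irf5 (chr6:29526625-29541871, plus strand) from the other strand, over 14.1% of its exonic bases, and its mean was 41.1 TPM in WT c-kit- and 41.5 TPM in WT c-kit+.

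Irf8 (chr8:120736358-120756694, plus strand) was the most abundant member in both WT groups. It was 593, 494 and 435 TPM in WT c-kit- and 93.3, 132 and 135 TPM in WT c-kit+, and the log2 fold change was −2.08 (SE 0.17, limma adjusted p = 0.00017). Every c-kit- library was above every c-kit+ library. Gm20388, annotated on the same strand across Irf8, shares no exonic base with it. Irf4 (chr13:30749226-30766976, plus strand), the relative of Irf8 known from lymphocytes and dendritic cells, was 11.6, 9.14 and 8.76 TPM in WT c-kit- and 1.02, 0.77 and 0.86 TPM in WT c-kit+. It passed the filter on low values in this comparison through the c-kit- libraries, where it is high, so its log2 fold change of −2.52 (SE 0.15) is given as a description.

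The targeted gene Irf7 followed the same order, with a log2 fold change of −2.38 (SE 0.19, limma adjusted p = 0.000154). Irf9 was 51.2, 55.7 and 62.5 TPM in WT c-kit- and 25.5, 27.7 and 24.7 TPM in WT c-kit+, with a log2 fold change of −1.09 (SE 0.09, limma adjusted p = 0.000174). Its c-kit- values were thus all above its c-kit+ values. Rnf31 overlaps Irf9 (chr14:55603571-55610030, plus strand) on the same strand, over 2.28% of its exonic bases.

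Irf2 (chr8:46739732-46847458, plus strand) was 61.5, 56.8 and 62.8 TPM in WT c-kit- and 41.7, 28.8 and 39.0 TPM in WT c-kit+, which is −0.73 on the log2 scale (SE 0.14, limma adjusted p = 0.00599). Irf1 did not pass, with a log2 fold change of −0.41 (SE 0.21, limma adjusted p = 0.172), and its groups overlapped. Without WT c-kit- library 1 it passed, at −0.62 (limma adjusted p = 0.0423), and without library 3 it was at −0.19. Its level was 38.2, 49.7 and 69.7 TPM in WT c-kit- and 40.6, 41.3 and 32.8 TPM in WT c-kit+. Irf3, the constitutive factor that starts interferon induction, did not pass either, at −0.17 (SE 0.07, limma adjusted p = 0.101), although its c-kit- values of 93.5, 80.4 and 82.2 TPM were above its c-kit+ values of 76.6, 75.7 and 74.6 TPM. Irf3 (chr7:44997648-45002848, plus strand) shares 2.56% of its exonic bases with Bcl2l12 on the other strand, and Irf1 shares 3.40% with Gm17334.

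Genes around the members moved in the same comparison. Of 23 upstream and partner genes, 14 were lower and 2 higher in WT c-kit+, against 27.6% and 14.0% of all genes. Their median log2 fold change was −0.44, against −0.08 over all genes. Spi1, the partner of IRF4 and IRF8, was at −0.44 (limma adjusted p = 0.00675), and Stat2, the partner of IRF9, of −0.52 (limma adjusted p = 0.000674). The 2 higher genes were Ikbke, a kinase of IRF3 and IRF7, at 1.55 (limma adjusted p = 5.01e-05), and Traf3, an adaptor of interferon induction, at 0.74 (limma adjusted p = 0.00114). The monocyte markers moved with the family: all 6 were lower in WT c-kit+, and their sum was 4384 to 5387 TPM in WT c-kit- and 2132 to 2492 TPM in WT c-kit+. The sums of dendritic cell markers were lower too in this comparison. The sum of 5 conventional dendritic cell markers was 70.5 to 109 TPM in WT c-kit- and 10.2 to 21.9 TPM in WT c-kit+, and all 4 that were tested were lower. Flt3 alone was 36.6 to 80.2 TPM in WT c-kit- and 6.72 to 18.55 TPM in WT c-kit+. The sum of 7 plasmacytoid dendritic cell markers was 69.6 to 104 TPM and 16.8 to 25.4 TPM, and all 3 that were tested were lower. Of these, Zbtb46, Siglech and Spib were under 1 TPM in every WT c-kit+ library and passed the filter only through WT c-kit-. Tcf4 alone of the plasmacytoid markers was above 5 TPM in any library. The part of these cell types in the result was not tested.

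**Figure D2:**
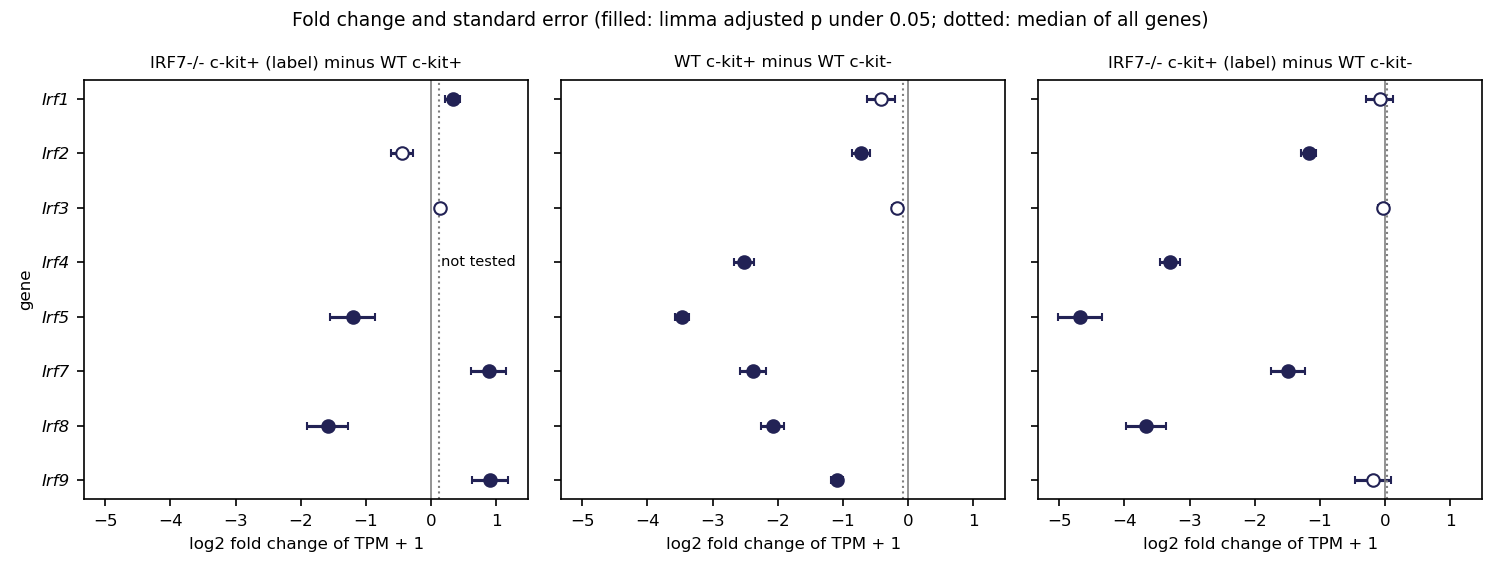
Log2 fold change (of TPM + 1) with its standard error for each member in the 3 comparisons; filled points have a limma adjusted p under 0.05 and the dotted line is the median of all genes. Against WT c-kit- every value lies at or below 0, while between the c-kit+ groups Irf1, Irf7 and Irf9 lie above 0 and Irf5 and Irf8 below.

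The second comparison asked how the family differs between c-kit+ cells by the label of the leukemia. Irf8 and Irf5 were lower in the labelled c-kit+ libraries, and Irf9, Irf7 and Irf1 were higher. Thus 5 of the 7 members tested passed, against 48.0% of 13238 genes, with 2 lower (16.1% of all genes) and 3 higher (31.9%). With the fold threshold as well, 2 passed, against 11.7%. The groups did not overlap for 6 of the 7, against 59.1%, and the median of all genes was 0.12. These calls are not firm: of the 5, only Irf8 kept an adjusted p under 0.05 in all 13 other settings, whereas Irf1 lost it in 9, Irf7 in 7, Irf5 in 6 and Irf9 in 5. The count was 2, 3 and 1 without WT c-kit+ library 1, 2 or 3, and 3 without labelled library 1 or 3. It was 3 with median ratio scaling and 2 without the filter. Some of these counts hold members outside the 5. Irf2 passed without WT c-kit+ library 2 and with median ratio scaling, Irf3 without labelled library 1, and Irf4 without the filter.

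Irf8 was 28.6, 65.5 and 31.1 TPM in the labelled libraries 1, 2 and 3, all below the lowest WT c-kit+ value of 93.3 TPM. The log2 fold change was −1.59 (SE 0.32, limma adjusted p = 0.0070), and it ran from −1.96 to −1.37 over the other settings. The exact two-sided permutation p was 0.1, below which groups of 3 cannot go. Irf5 was 6.49, 15.9 and 5.55 TPM, below the lowest WT c-kit+ value of 18.7 TPM, with a log2 fold change of −1.20 (SE 0.35, limma adjusted p = 0.0271, 0.000895 to 0.0830 over the other settings). Labelled library 2 was the highest of its group for both genes. The same library had the highest sum of 5 conventional dendritic cell markers, 57.4 TPM against 9.23 and 8.22 TPM, of which Flt3 gave 56.9 TPM; Xcr1, Zbtb46, Clec9a and Cd209a were each under 0.3 TPM in it. The part of this library's difference in the result was not tested beyond leaving it out, which gave −1.96 for Irf8 and −1.63 for Irf5.

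Irf4 was 0.14, 0.01 and 0.13 TPM in the labelled libraries, below every WT c-kit+ library, and did not pass the filter on low values. Irf2 was 29.5, 28.0 and 21.8 TPM, with a log2 fold change of −0.44 (SE 0.17, limma adjusted p = 0.0663), and labelled library 1 was above WT c-kit+ library 2. Irf2 passed in 4 of 13 other settings. Irf3 was 76.8, 88.2 and 86.7 TPM, with a log2 fold change of 0.15 (SE 0.07, limma adjusted p = 0.113), close to the median of all genes.

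Irf9 was 79.7, 36.0 and 42.2 TPM in the labelled libraries, above the highest WT c-kit+ value of 27.7 TPM. The log2 fold change was 0.91 (SE 0.27, limma adjusted p = 0.0316, 0.0105 to 0.0829 over the other settings), and it was 0.57 without labelled library 1. Irf7 had a log2 fold change of 0.89 (SE 0.27, limma adjusted p = 0.0321, 0.0141 to 0.0943 over the other settings), and it was 0.62 without that library. For both genes library 1 was the highest of its group. Irf1 (chr11:53770014-53778374, plus strand) was 49.7, 52.4 and 43.0 TPM, just above the WT c-kit+ libraries, with a log2 fold change of 0.33 (SE 0.11, limma adjusted p = 0.0492, 0.0142 to 0.189 over the other settings).

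**Figure D3:**
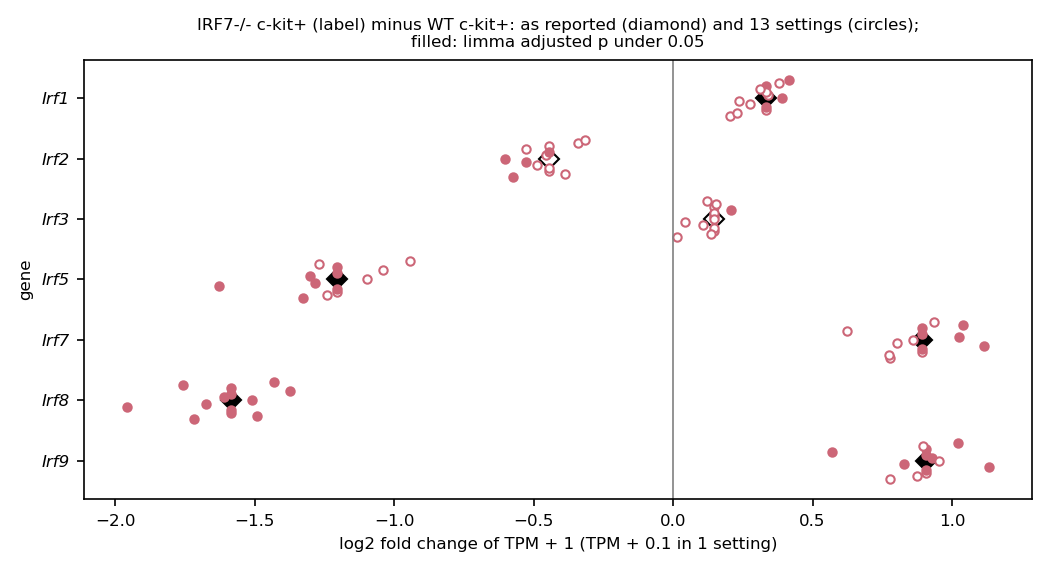
Log2 fold change of the 7 tested members from WT c-kit+ to the labelled c-kit+ libraries, as reported (diamonds) and in 13 other settings (circles), filled where the limma adjusted p was under 0.05. All settings keep the sign of each member, and only Irf8 is filled throughout.

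Genes known as targets of the members were counted in the same comparison. Of 16 ISGF3 targets, antiviral genes, 13 were tested. Of these, 4 were under 1 TPM in every WT c-kit+ library and passed the filter only through the labelled libraries, where they are high, so their log2 fold changes are descriptions: 4.64 for Rtp4, 3.11 for Usp18, which removes ISG15 from proteins, 2.74 for Ifit1 and 1.94 for Rsad2. Of the other 9, 7 were higher and none lower, against 31.9% and 16.1% of all genes. Their median log2 fold change was 1.44, against 0.12 over all genes. Isg15, a ubiquitin-like protein, was at 2.30 (SE 0.68, limma adjusted p = 0.0302). The summed level of the 16 genes was 710, 172 and 249 TPM in the labelled libraries and 81.0 to 93.1 TPM in WT c-kit+. Library 1, the highest for Irf9 and Irf7, was also the highest here. The sum in WT c-kit- was 108 to 163 TPM, below every labelled library, of which the lowest was 172 TPM. Of 15 targets tested between these groups, 8 were higher and 2 lower in the labelled libraries, against 30.7% and 28.7% of all genes. Mx1 went against the sum, at 28.8 to 30.4 TPM in WT c-kit- and 2.02 to 8.39 TPM in the labelled libraries. Irf7 was higher in WT c-kit- than in any labelled library, and Irf9 overlapped between these groups. A link between the levels of the members and of these targets was not tested. With a labelled library left out, the 4 genes under 1 TPM in WT c-kit+ no longer passed the filter. Without library 1, 7 of 9 targets tested were higher and their median was 1.07, and without library 3 it was 6 of 9. Without WT c-kit+ library 1, 2 or 3 the count over all 13, those 4 included, was 7, 6 and 6. Stat2, the partner of IRF9, did not pass, at 0.25 (limma adjusted p = 0.116). Of 6 interferon genes, none was tested, and all were listed at 0 in every library except Ifng, at 0.06 TPM in 1 WT c-kit+ library.

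Of 15 IRF1 targets, 12 were higher and 1 lower, against 31.9% and 16.1% of all genes. The median was 0.84 over the 14 that did not pass the filter through 1 group alone, against 0.12 over all genes. Without WT c-kit+ library 1, 2 or 3 the count of higher targets was 9, 11 and 9. Without labelled library 1, 2 or 3 it was 10, 10 and 11. Gbp2 and Gbp3, interferon-induced GTPases, had log2 fold changes of 1.91 and 1.52, the chemokine Cxcl10 of 1.16 and the peptide transporter Tap1 of 1.09. Ciita, the regulator of MHC class II genes, was the lower one. It was under 1 TPM in every labelled library and passed the filter only through WT c-kit+, so its −1.43 is a description. Of 10 IRF8 targets, 8 were tested, 3 were lower and 2 higher. The lower genes were Cybb, the catalytic subunit of the phagocyte oxidase, at −3.68 (SE 0.37, limma adjusted p = 0.000554), Il1b and Klf4, a monocyte transcription factor. Il1b and Klf4 were under 1 TPM in every labelled library and passed the filter only through WT c-kit+, so their −2.57 and −2.40 are descriptions. They left the filter with any WT c-kit+ library left out, so that 1 of 6 tested was lower. The higher genes, Cst3 and Asah1, had 0.63 and 0.24.

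Upstream and partner genes showed no common direction: 3 of 22 tested were higher and 3 lower, against 31.9% and 16.1% of all genes. Their median was 0.09, against 0.12 over all genes. Ikbke was lower at −1.43 (SE 0.12, limma adjusted p = 0.000256), from 153 ± 3.89 to 56.7 ± 9.25 TPM (SD, n = 3). Traf3 was at −0.42, and Irf2bp2, which encodes a corepressor of IRF2, at −0.28 (limma adjusted p = 0.0208). Batf2 and Batf, partners of IRF4 and IRF8, were higher at 1.13 and 0.47, and Trim21, a ubiquitin ligase, at 0.77. Spi1 had −0.08 (limma adjusted p = 0.362) and Tbk1, the other kinase of IRF3, 0.11 (limma adjusted p = 0.358). Batf3 was under 1 TPM in both groups. The neutrophil markers moved with this comparison, with 6 of 7 lower in the labelled libraries, of which Cxcr2 was under 1 TPM in all 3 of them and passed the filter only through WT c-kit+. Of 6 monocyte markers, 3 were lower and 1 higher. Their sum was 2473 to 3069 TPM in the labelled libraries and 2132 to 2492 TPM in WT c-kit+. Ly6c2 made up most of this sum, at 2204 to 2799 TPM and 1882 to 2096 TPM. The sum of 7 plasmacytoid dendritic cell markers was 62.2 to 89.9 TPM in the labelled libraries and 16.8 to 25.4 TPM in WT c-kit+. Tcf4, the only plasmacytoid marker tested, was higher at 1.72. The part of these shifts was not tested.

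**Figure D4:**
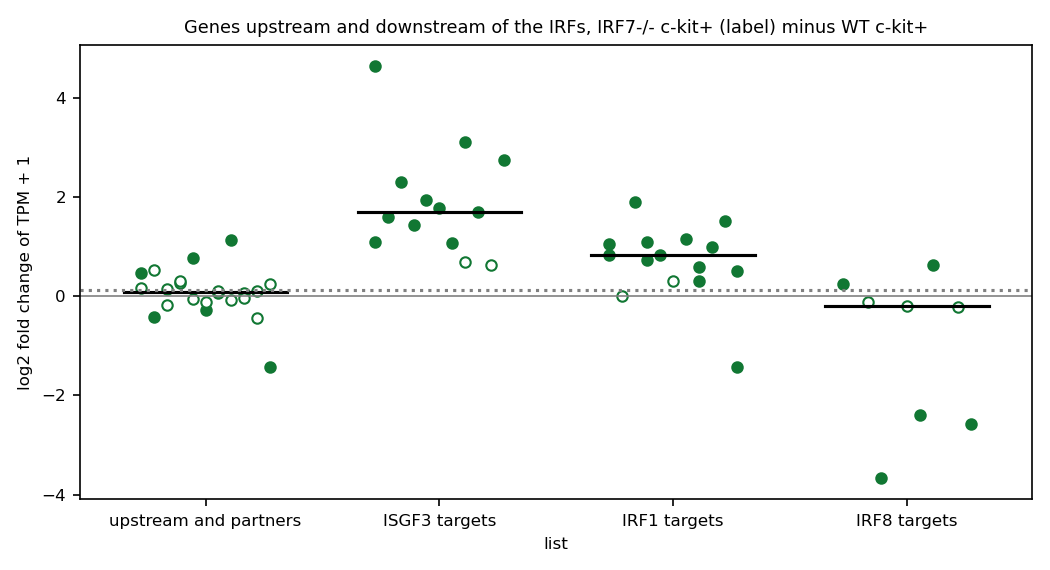
Log2 fold change of every tested gene of 4 lists from WT c-kit+ to the labelled c-kit+ libraries (filled, limma adjusted p under 0.05; bar, median of the list; dotted line, median of all genes). Most points of the ISGF3 and IRF1 target lists lie above 0 and the IRF8 target list holds genes on both sides. Rtp4, Usp18, Ifit1, Rsad2, Ciita, Il1b and Klf4 were under 1 TPM in every library of 1 group. The bars include these genes. The median of the ISGF3 list is 1.69 with them and 1.44 without, and that of the IRF8 list −0.21 and −0.16.

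The third comparison set the labelled c-kit+ libraries against WT c-kit-, and shares libraries with both comparisons above. Of the 8 members, 5 were lower and none higher, against 59.4% of 13510 genes passing, 28.7% lower and 30.7% higher. All 5 also passed the fold threshold (20.3% of all genes), and the groups did not overlap for 5 members (67.1%). The log2 fold change was −4.68 for Irf5 (SE 0.34, limma adjusted p = 5.77e-05), −3.66 for Irf8 (SE 0.31, limma adjusted p = 0.000109) and −1.17 for Irf2 (SE 0.12, limma adjusted p = 0.000233). Irf7 had −1.49 (SE 0.27, limma adjusted p = 0.00298), so that its labelled libraries lay between both WT groups. Irf4 had −3.30 (SE 0.15), and passed the filter through the c-kit- libraries alone. Irf9 (−0.18, limma adjusted p = 0.602), Irf1 (−0.08, limma adjusted p = 0.767) and Irf3 (−0.02, limma adjusted p = 0.822) did not pass, and their groups overlapped. Without labelled library 1, Irf9 passed, at −0.52 (limma adjusted p = 0.0142). A p above the threshold does not show that these levels were equal.

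The make-up of the family changed with these levels. The summed level of the 8 members was 1038 ± 52.5 TPM in WT c-kit-, 322 ± 17.2 TPM in WT c-kit+ and 271 ± 28.8 TPM in the labelled libraries (SD, n = 3). None of the 3 groups overlapped another, and the exact two-sided permutation p was 0.1 for each pair, the smallest possible. Without Irf8, the sum was 530 ± 41.3, 202 ± 7.28 and 230 ± 24.0 TPM, which turns the order of the c-kit+ means. The c-kit+ groups overlapped in that sum, with 207 TPM in labelled library 3 and 209 TPM in WT c-kit+ library 1. Irf8 took 48.8% ± 5.58, 37.1% ± 5.48 and 15.2% ± 6.45 of the sum, and Irf5 and Irf8 together 71.9% ± 3.06, 43.5% ± 5.64 and 18.5% ± 8.23.

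The order of the members differed as well. In WT c-kit- it was Irf8, Irf5, Irf3, Irf2, Irf9, Irf1, Irf7 and Irf4, where Irf2, Irf9 and Irf1 overlapped their neighbors. In WT c-kit+ it was Irf8, Irf3, Irf1, Irf2, Irf9, Irf5, Irf7 and Irf4, where Irf1 and Irf2 overlapped. In the labelled libraries Irf3 had the highest mean, followed by Irf9, Irf1, Irf8 and Irf2, each overlapping the next, and then Irf5 and Irf7, which also overlapped, and Irf4.

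**Figure D5:**
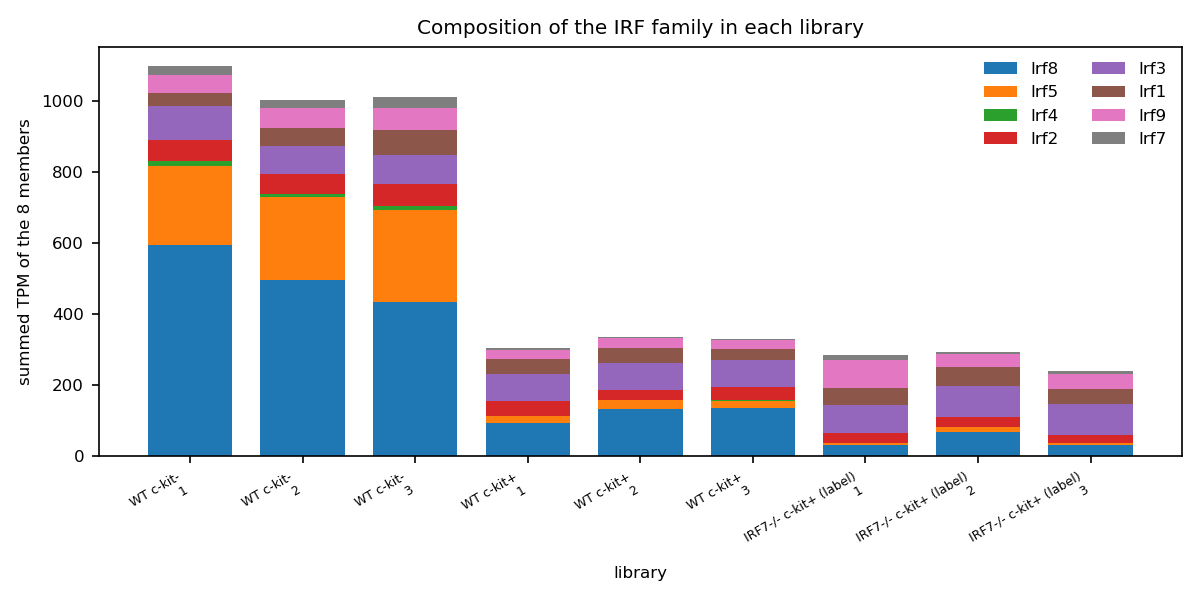
Summed TPM of the 8 IRFs in each library (linear axis from 0), split by member. Irf8 and Irf5 fill 71.9% of the bar on average in WT c-kit-, 43.5% in WT c-kit+ and 18.5% in the labelled libraries.

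Ratios within a library do not depend on its scaling. The ratio of Irf1 to Irf2, activator to repressor, was 0.62, 0.87 and 1.11 in WT c-kit-, 0.97, 1.44 and 0.84 in WT c-kit+ and 1.68, 1.87 and 1.97 in the labelled libraries. The labelled libraries were above all others. The difference from WT c-kit+ was 0.80 on the log2 scale (exact two-sided permutation p = 0.1), and WT c-kit+ and WT c-kit- overlapped (difference 0.32, exact permutation p = 0.5). The ratio of Irf8 to Irf2 was 9.64, 8.70 and 6.92 in WT c-kit-, 2.24, 4.60 and 3.47 in WT c-kit+ and 0.97, 2.34 and 1.42 in the labelled libraries. The c-kit+ groups overlapped in this ratio (difference −1.16 on the log2 scale, exact permutation p = 0.2).

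For each member the genes with the most similar pattern were read by Pearson's r of log2(TPM + 1) over the 9 libraries, among genes with a mean of at least 5 TPM. The 9 libraries fall into 3 groups, so r mostly describes the order of the groups, and no p is given. For Irf9 the closest genes were Trim30a (r = 0.989), Zbp1 (0.973) and Ogfr (0.972), and for Irf7 Irak4 (0.990), H2-K2 (0.986) and Grn (0.982). For Irf8 they were Il6st (0.997), Slc9a7 (0.995) and Wdr26 (0.994), for Irf5 Plxnb2 (0.997), Ythdf3 (0.997) and S100a4 (0.996), and for Irf4 Tyk2 (0.998), Retreg3 (0.996) and Ctdsp2 (0.995). For Irf2 they were Fry (0.981), Rbms1 (0.976) and Pstpip2 (0.974). The values were lower for Irf1, with Gm21992 (0.950), Clasrp (0.884) and Panx1 (0.870), and for Irf3, with Wrap53 (0.927), Arhgap15 (0.924) and Aar2 (0.921).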

How the data were processed

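Values are TPM as deposited by the authors, 55536 genes by 9 libraries, after their own alignment and quantification. The aligner, the build and the use of strand are not given in the sources used here. TPM keep no read depth, so precision can be judged only between the 3 libraries of a group. The members, lists and tests were chosen with earlier results of these data known, and the motifs, the exon overlaps and the alternatives on lists after the members' values were seen.

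limma (version 3.58.1, R 4.3.3, lmFit and eBayes with trend) was fitted to log2(TPM + 1) for each pair of groups, keeping genes that reached 1 TPM in 3 or more of those 6 libraries, with Benjamini-Hochberg adjustment over all genes. Single values had exact two-sided permutation tests. The fit was also run on simulated data in which, unlike here, few genes changed, so that run is no check on these results. Named genes were all members, at most 5 genes per list with the largest change among those passing, and 7 partners, of which 1 is not reported here. Alternatives were a pseudocount of 0.1, no filter, a filter of 5 TPM, quantile normalization, median ratio scaling, 1 fit of all libraries, a replicate block, and each library left out (3 of the remaining 5 libraries in the filter). Coordinates and exons are from GENCODE on GRCm38, and promoters from RefSeq.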

Additional observations from a re-analysis of the deposited data

How the results depend on the processing

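Between the c-kit+ groups, 59 of 91 alternative member values kept their side of the threshold, 27 lost and 5 gained it, and none reversed. The count of members passing, 5, was 2 without the filter, 3 with median ratio scaling and 2 with the fold threshold. It was 1 to 4 with 1 library left out. Some of these counts hold members outside the 5. Against WT c-kit-, 102 of 104 values of WT c-kit+ and 94 of 101 of the labelled libraries were unchanged in call and direction. Values that reversed had not passed. With quantile normalization Irf3 was 0.014 in WT c-kit+ and 0.058 in the labelled libraries, against WT c-kit-. With 1 library left out, the labelled libraries gave −0.28 to 0.14 for Irf1 (above 0 without WT c-kit- replicate 3 or labelled replicate 3), −0.066 to 0.042 for Irf3 (above 0 without WT c-kit- replicate 1 or labelled replicate 1) and −0.52 to 0.044 for Irf9 (above 0 without labelled replicate 2). On the log2 scale, the family total between the c-kit+ groups, −0.25, was −0.39 with median ratio scaling and 0.18, with overlap, without Irf8. Between the WT groups it was −1.59 and −1.39 in these settings, and to the labelled libraries −1.21 without Irf8. Irf4 between the c-kit+ groups was tested only without the filter (−0.78, limma adjusted p = 0.00288). With the replicate number as a block, 5, 6 and 5 members passed in the 3 comparisons, as without it. Deviations of libraries with the same number had correlations of −0.06 to 0.26. Libraries with unequal numbers were not correlated for reference, so these values do not decide whether the numbers pair the libraries. The causes of these changes were not tested. The depth of TPM is unknown.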

Other observations

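Marker lists of other cell types were read beside the family. T cell markers summed to at most 4.69 TPM in any library and erythroid markers to at most 9.60 TPM. B cell markers summed to 26.4 to 38.1 TPM over the 9 libraries with overlapping groups. Plasma cell markers summed to 24.6 to 69.5 TPM in WT c-kit-, 10.3 to 43.9 TPM in WT c-kit+ and 2.74 to 3.47 TPM in the labelled libraries. Macrophage markers summed to 66.6 to 102 TPM, 31.2 to 51.4 TPM and 56.6 to 79.5 TPM in the same order, a sum that Adgre1 carries. Of 5 macrophage markers tested between the WT groups, 3 were higher and 1, Adgre1, lower in WT c-kit+, and C1qa and C1qc of the higher ones were under 1 TPM in every WT c-kit- library. Of 4 tested between the c-kit+ groups, Adgre1 was higher and 3 were lower in the labelled libraries. Of 3 NK cell markers, Nkg7 was 0.75 to 1.97 TPM in WT c-kit- and 89.7 to 192 TPM in the c-kit+ libraries, while Ncr1 and Klrb1c were under 0.5 TPM in all libraries.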
